A study of Caenorhabditis elegans with 2 samples.

Results

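The vacuolar ATPase is a rotary proton pump made of a membrane sector, V0, and a water-soluble sector, V1, and the 8 genes described here, vha-8 to vha-15, encode the V1 subunits. They were taken by name from the Ensembl annotation, with no measured value in the rule, and are 8 of the 19973 protein-coding genes on the 6 nuclear chromosomes. The list was chosen with earlier results of these data known. Sites of HMG-1.1, a chromatin protein with a high mobility group box, were found by ChIP-seq with an antibody against GFP. The animals were Caenorhabditis elegans of the engineered strain RW12311, in which CRISPR placed a TY1::EGFP::3xFLAG insertion at hmg-1.1 on chromosome II. Whole L4 larvae aged 48 hours, grown from L1 larvae starved after bleaching, gave 2 biological replicates of 1 group, both carrying the insertion. The control experiment named in the labels is not analysed here. Whole animals pool all tissues, so a peak cannot be assigned to a tissue, and a peak list does not report transcription.

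In the V1 sector, ATP is split at the interfaces of a ring of A and B subunits, the D and F subunits form the central shaft that the ring turns, and C, E, G and H form the outer stalks that hold the ring in place against V0. The pump acidifies lysosomes, endosomes and other compartments in all animal cells, and in worms it is abundant in the excretory cell, the intestine and the epidermis. Detachment of V1 from V0 is a known way of switching the pump off, and subunits C and H take part in it in yeast.

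A peak's summit was credited to a gene when it lay between 2000 bp upstream of the annotated start and the gene's end, and negative offsets are upstream of the start. In the list that the authors call conservative, which holds 4277 peaks called on both replicates together, 6 of the 8 V1 genes had a summit, against 3784 of all 19973 protein-coding genes (18.9%). These were vha-13 (subunit A), vha-12 (B), vha-8 (E), vha-9 (F), vha-10 (G) and vha-15 (H). The genes of subunits C (vha-11) and D (vha-14) had none. Within 500 bp of the start, 4 of the 8 genes had a summit (vha-12, vha-15, vha-8 and vha-10), against 1954 of all genes (9.78%). All 7 summits of these 6 genes lay upstream of the start and 0 lay inside the gene. Counted as the strongest summit per gene, it was upstream in 6 of these 6 genes, against 2883 of the 3784 genes with a summit (76.2%).

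**Figure D1:**
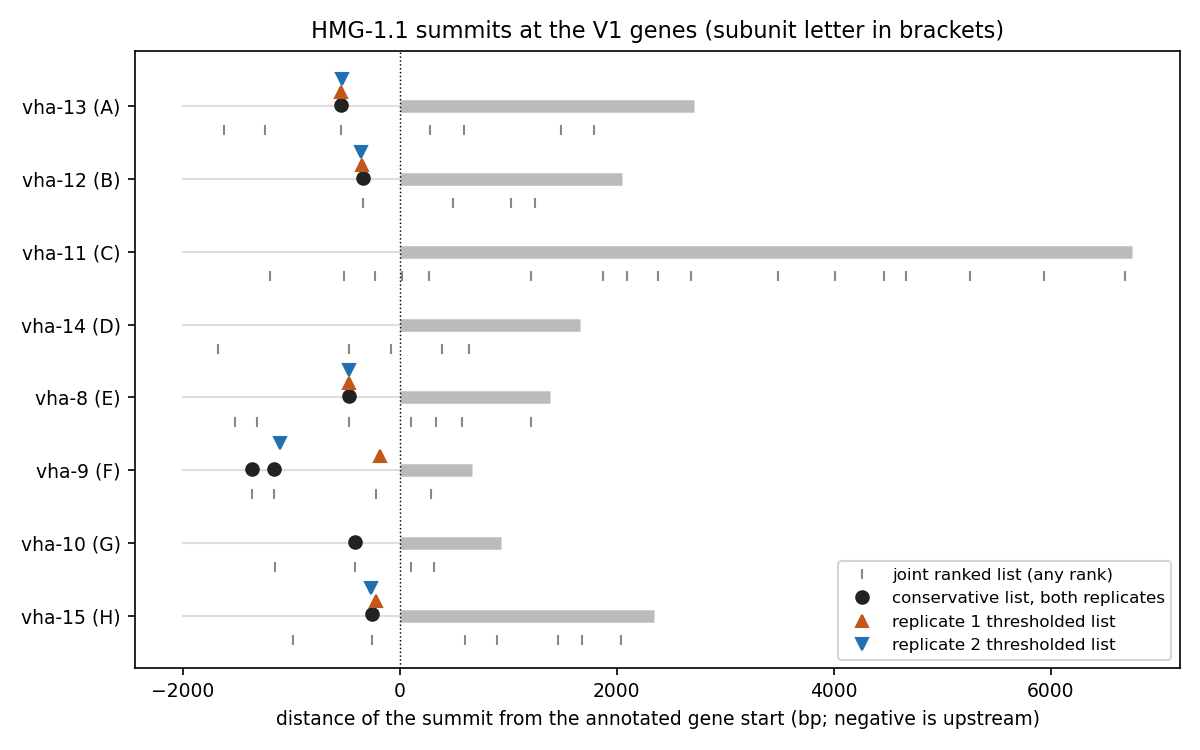
Positions of summits in the windows of the 8 V1 genes, as distance from the annotated gene start in bp (horizontal axis, upstream negative), by gene. Symbols are thresholded lists, grey ticks the joint ranked list and grey bars the genes. The summits of vha-12, vha-13, vha-8 and vha-15 fall at nearly the same place in the conservative list and in both replicates, those of vha-9 do not, and vha-11 and vha-14 have ranked peaks only.

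The sequences below are those of the 3 V1 genes whose summit lay in an intergenic interval, shown so that the letters under the peaks can be compared. Each is the 151 bases centred on the conservative summit (ce11), written 5′ to 3′ on the gene's strand. Capitals mark GTCTCG and GACGCAG, on either strand, a pair of motifs chosen after these sequences had been seen.
vha-12, chrX:4190676-4190826, plus strand: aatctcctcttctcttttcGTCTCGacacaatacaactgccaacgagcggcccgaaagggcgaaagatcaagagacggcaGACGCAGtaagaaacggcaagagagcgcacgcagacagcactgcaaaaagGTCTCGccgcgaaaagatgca
vha-15, chrX:2237582-2237732, plus strand: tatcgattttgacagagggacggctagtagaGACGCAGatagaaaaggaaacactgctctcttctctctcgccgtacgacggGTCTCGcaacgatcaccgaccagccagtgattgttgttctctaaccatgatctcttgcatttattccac
vha-8, chrIV:6790529-6790679, plus strand: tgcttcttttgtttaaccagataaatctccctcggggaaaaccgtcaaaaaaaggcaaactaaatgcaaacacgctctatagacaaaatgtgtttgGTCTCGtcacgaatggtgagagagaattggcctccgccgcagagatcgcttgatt
The vha-12 window held GTCTCG at 2 places and GACGCAG at 1, the vha-15 window held each at 1 place, and the vha-8 window held GTCTCG at 1.

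In the conservative list and in replicate 1, the genes of the catalytic ring had the strongest peaks of the sector. In replicate 2, vha-8 of the stalk (rank 334 of 3082) stood above vha-13 of the ring (rank 428). vha-12, which encodes subunit B (WBGene00006921, chrX:4191094-4193144, plus strand, ce11), had its conservative summit in the intergenic interval at -343 bp, in a peak 213 bp wide (chrX:4190636-4190848). The signal, the authors' value for a peak, has no stated scale, so replicates are compared by rank within their lists. It was 347, rank 227 of 4277 (the strongest 5.31% of the list). In replicate 1 the summit was at -344 bp with a signal of 166.8, and ranked 196 of 2613 (7.50%). In replicate 2 it was at -359 bp with a signal of 188.8, rank 224 of 3082 (7.27%). The rank in the replicates' lists was 7.38% ± 0.165 (SD, n = 2). The nearest protein-coding start was that of vha-12 itself.

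vha-13, which encodes subunit A (WBGene00013025, chrV:14351709-14354422, plus strand), had a summit at -544 bp with a signal of 300.5, which ranked 366 of 4277 (8.56%). The summit of the peak (chrV:14351066-14351276, 211 bp wide) lay beyond the 500 bp distance, in the 3′ UTR of cept-2. That gene lies upstream on the same strand, and its end is 226 bp from the vha-13 start. Replicate 1 had the summit at -539 bp with a signal of 160.5, rank 227 of 2613 (8.69%). In replicate 2 it was at -528 bp with a signal of 151.6, rank 428 of 3082 (13.9%). The rank was 11.3% ± 3.68 (SD, n = 2), and the nearest protein-coding start was that of vha-13.

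The stalk genes differed widely in signal. vha-8, which encodes subunit E (WBGene00006917, chrIV:6791074-6792455, plus strand), had a summit at -470 bp with a signal of 275.3, rank 454 of 4277 (10.6%), in an intergenic peak 172 bp wide (chrIV:6790549-6790720). Replicate 1 had it at -466 bp with a signal of 102.4, rank 702 of 2613 (26.9%), and replicate 2 at -469 bp with a signal of 167.6, rank 334 of 3082 (10.8%). Its rank was 18.9% ± 11.3 (SD, n = 2), so the peak ranked higher in replicate 2. The start of C17H12.2, on the other strand, is nearer, with the summit at -116 bp from it, so the peak belongs to a shared upstream interval.

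vha-15, which encodes subunit H (WBGene00020507, chrX:2237911-2240255, plus strand), had an intergenic summit at -254 bp with a signal of 185.5, rank 961 of 4277 (22.5%, chrX:2237469-2237844). In replicate 1 it was at -217 bp with a signal of 68.7, rank 1409 of 2613 (53.9%), and in replicate 2 at -264 bp with a signal of 118.7, rank 740 of 3082 (24.0%). The rank was 39.0% ± 21.2 (SD, n = 2), the widest gap among the 4 V1 genes with overlapping peaks in both replicates.

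vha-10, which encodes subunit G (WBGene00006919, chrI:5609341-5610270, minus strand), had a summit at -417 bp with a signal of 106.2, rank 2261 of 4277 (52.9%), in an intron of trpp-8, the next gene upstream on the same strand. The peak (chrI:5610499-5610874) was in neither replicate's thresholded list. In the ranked lists, which keep weaker and less reproducible peaks, replicate 1 had a summit at -456 bp with a signal of 59.8 and a score of 425, and replicate 2 one at -437 bp with a signal of 46.8 and a score of 795. The score is the authors' scaled measure of reproducibility, and every thresholded list starts at 830. The vha-10 peak therefore passed with both replicates together and fell short in each replicate's own list.

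vha-11, which encodes subunit C (WBGene00006920, chrIV:2307815-2314567, minus strand), is the longest gene of the sector at 6753 bp and had no thresholded summit. Its window held 17 peaks of the joint ranked list, 14 of replicate 1 and 18 of replicate 2, and 0 of them reached a score of 830. The strongest was at -1194 bp with a signal of 68.0 and a score of 710, in a coding exon of vha-3, which encodes a proteolipid of the V0 ring and lies 892 bp upstream on the same strand. The replicates' strongest peaks were far apart, at 5977 bp in replicate 1 (signal 34.9) and at -1181 bp in replicate 2 (signal 33.4). The conservative summit of vha-3 is at -2414 bp from vha-11, outside the window.

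Neither gene of the central shaft had a strong peak. vha-9, which encodes subunit F (WBGene00006918, chrII:10303050-10303713, minus strand), had 2 conservative summits, both far upstream in an intron of gcy-4, a gene on the same strand. The stronger was at -1160 bp with a signal of 78.2, rank 3314 of 4277 (77.5%), and lay 31 bp from the start of a tRNA gene. The weaker was at -1361 bp with a signal of 27.7, rank 4087 (95.6%), inside the tRNA gene WBGene00014636, and the authors' q-value for it was 0.855. In replicate 1 the thresholded summit was at -184 bp with a signal of 47.6, rank 2253 of 2613 (86.2%). In replicate 2 it was at -1102 bp with a signal of 41.5, rank 2751 of 3082 (89.3%), inside the tRNA gene WBGene00014637. The replicates thus called different places. The ranked lists hold a replicate 1 peak at -1207 bp (signal 34.1, score 495) and a replicate 2 peak at -208 bp (signal 25.5, score 69), so each place had a weaker peak in the other replicate. The second thresholded series list, of 4414 peaks, added a summit at -217 bp with a signal of 65.3.

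vha-14, which encodes subunit D (WBGene00010130, chrIII:9508100-9509757, plus strand), had no thresholded summit. Its strongest joint ranked peak was at -83 bp with a signal of 49.7, rank 8576 of 84052, and a score of 64. Replicate 2 had a peak at -70 bp with a signal of 41.7 and a score of 639. The strongest in replicate 1 was at -536 bp with a signal of 22.0 and a score of 209, and replicate 1 had another at -48 bp with a signal of 9.26. That replicate 1 peak at -48 bp ranked 39290 of 50642, with a score of 145 and a q-value of 0.944. Both ranked lists thus have an entry near the start, below the score of the thresholded lists. The replicate 1 entry is too weak to count as a replicated site.

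**Figure D2:**
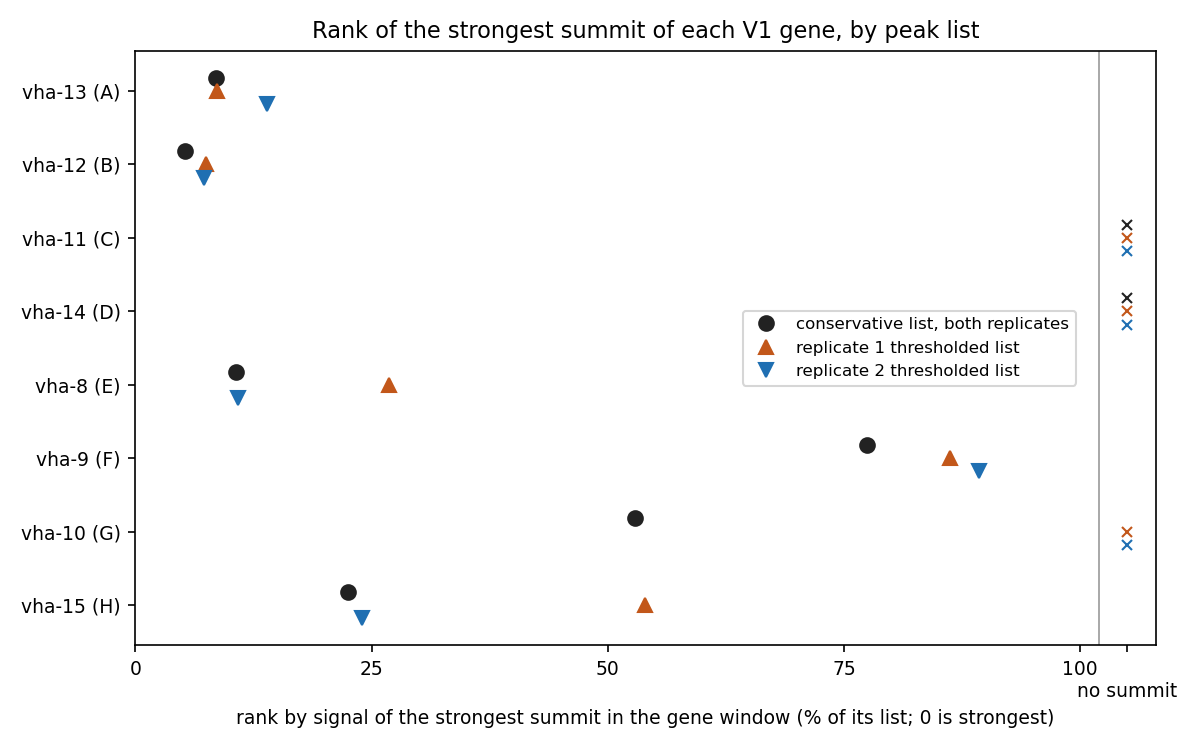
Rank percent of the strongest summit of each V1 gene (0 is the strongest peak of a list) in the conservative list and in each replicate's thresholded list, with crosses where a list has no summit. vha-12 lies at 5.31, 7.50 and 7.27%, while vha-15 lies at 22.5, 53.9 and 24.0%, and vha-9 is near the weak end in all 3 lists.

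Each replicate's own list called 5 of the 8 V1 genes, the same 5, which are the 6 of the conservative list without vha-10. At vha-9 the replicates called different places, at -184 bp in replicate 1 and at -1102 bp in replicate 2. The share of all protein-coding genes was 12.3% in replicate 1 and 14.1% in replicate 2. Within 500 bp of the start, replicate 1 called 4 V1 genes (vha-12, vha-15, vha-8 and vha-9) against 6.06% of all genes, and replicate 2 called 3 (the same without vha-9) against 7.30%. For the 4 genes whose peaks overlapped between the replicates, the summits were 3 bp apart at vha-8, 11 bp at vha-13, 15 bp at vha-12 and 47 bp at vha-15. Over all 2131 overlapping pairs of peaks the median distance was 20 bp, with quartiles of 8 and 46.5 bp. The rank percents of the replicates differed by 0.233 at vha-12 and by 29.9 at vha-15, against a median of 8.89 over all pairs, and vha-13 and vha-8 lay between. The difference at vha-15 exceeded that of 88.1% of pairs and the difference at vha-12 that of 3.10%. vha-12 held the leading rank of the sector in both replicates, and vha-8 and vha-13 changed order between them.

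The ranked lists place the 2 uncalled genes. All 8 V1 genes had a ranked peak in their window in each of the 3 ranked lists, where the share of all genes was 71.8% in the joint list, 68.6% in replicate 1 and 65.5% in replicate 2, so presence in a ranked list is the usual state of a gene. Among the 14343 genes with a joint ranked peak the median strongest signal was 45.1, and the percent of those genes with a peak at least as strong was 1.83 for vha-12, 2.91 for vha-13, 3.62 for vha-8, 7.68 for vha-15, 17.1 for vha-10, 23.8 for vha-9, 27.8 for vha-11 and 43.1 for vha-14. vha-14 stood near the middle of the genes that have a joint ranked peak, and vha-11 above it. The same percent in replicate 1 was 61.2 for vha-14 and 28.8 for vha-11. In replicate 2 it was 27.5 for vha-14 and 37.0 for vha-11, so the order of these genes turned. The vha-11 window, at 8753 bp, is also the longest of the sector.

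The strongest peak exceeded the second strongest by the most at 4 genes. This comparison was not made over all genes, so no share stands beside the count. The second strongest joint ranked peaks of these 4 genes had signals of 30.3 to 45.8, so a large ratio largely follows from a strong first peak. The ratio of the strongest to the second strongest joint ranked peak in the window was 10.1 at vha-12, 6.97 at vha-8, 6.56 at vha-13 and 6.12 at vha-15. It was 1.83 at vha-10 and between 1.09 and 1.40 at vha-11, vha-9 and vha-14. In replicate 1 the first 4 genes had ratios of 3.56 to 8.83 and in replicate 2 of 6.48 to 10.4, and none of the other 4 exceeded 2.13 in either. The peaks of vha-12, vha-13 and vha-8 were also narrower than the usual width of 376 bp, which 3380 conservative peaks (79.0%) have. Narrower peaks were 795 (18.6%), with a median signal of 269.5 against 97.2 at the usual width.

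**Figure D3:**
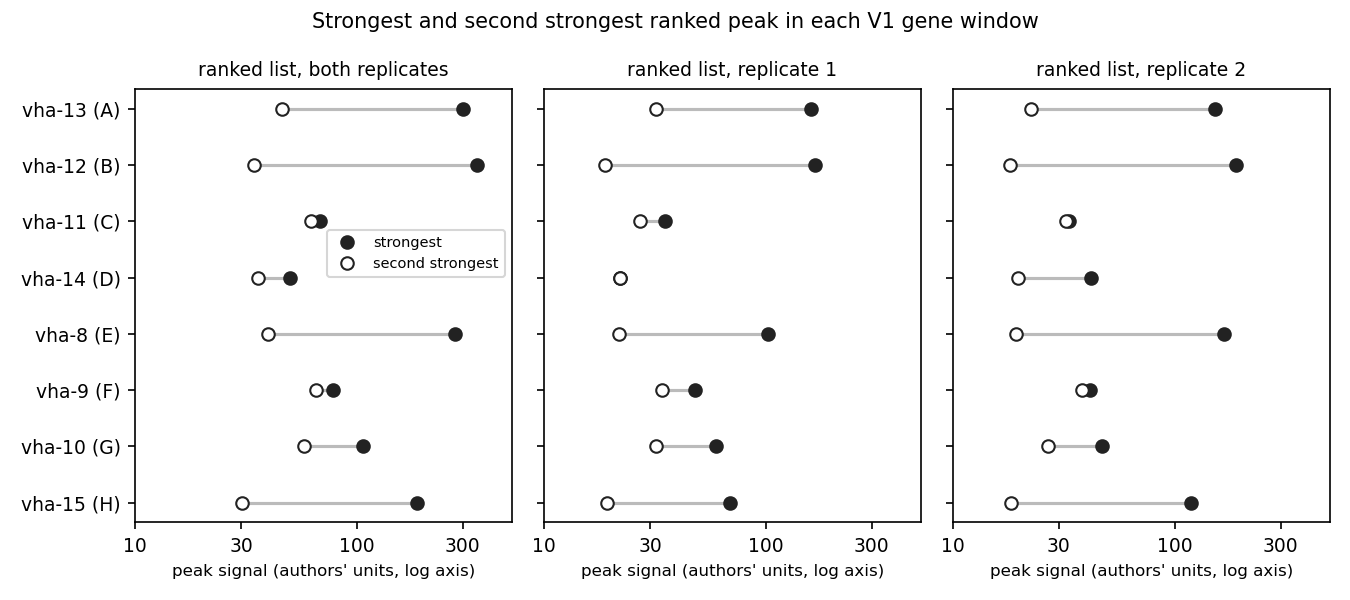
Signal (authors' units, log axis) of the strongest and second strongest ranked peak in the window of each V1 gene, in the joint ranked list and in each replicate. The gap is wide at vha-12, vha-13, vha-8 and vha-15 in all 3 lists and narrow at vha-11 and vha-9.

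The V0 sector and the accessory genes gave a comparison within the same pump, by count only and not tested. Of 12 V0 and accessory genes, 5 had a conservative summit in the window (18.9% of all genes), and of the 2 further V1 copies, vha-18 and spe-5, 0 had one. unc-32, an a subunit of V0, had the strongest, at -1322 bp with a signal of 480.7, rank 80, but the nearest start was that of lin-9, and its own second summit at -202 bp had a signal of 102.5. vha-1 and vha-2, which encode proteolipids, share 1 summit, at -439 bp from vha-1 and -1349 bp from vha-2, with a signal of 180.1. vha-3 had a summit at -1036 bp with a signal of 226.4, in the 5′ UTR of Y38F2AL.12 and an exon of Y38F2AL.10. The nearest protein-coding start was that of Y38F2AL.12, with the summit 408 bp downstream of it. vha-16, which encodes subunit d, had a summit at -149 bp with a signal of 98.4. The a subunit genes vha-5, vha-6 and vha-7, vha-4, vha-17 and the accessory genes vha-19 and vha-20 had none. Within 500 bp of the start, 3 of the 12 had a summit (vha-1, vha-16 and unc-32), against 9.78% of all genes.

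**Figure D4:**
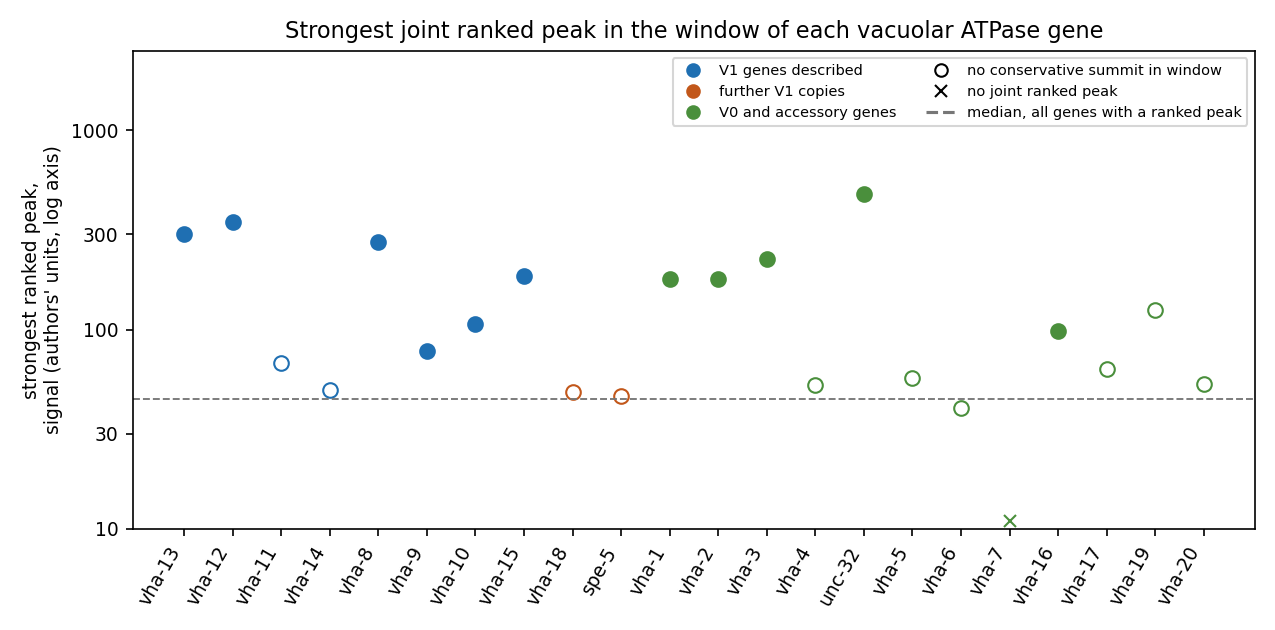
Signal (authors' units, log axis) of the strongest joint ranked peak in the window of each vacuolar ATPase gene, filled where a conservative summit is present. The dashed line is the median of 45.1 over all genes with a ranked peak, and vha-12, vha-13 and vha-8 stand above all V0 and accessory genes except unc-32.

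Position, chromosome and neighbours differed among the members. On the X chromosome 626 of 2731 protein-coding genes (22.9%) had a conservative summit in the window, against 3158 of 17242 on the autosomes (18.3%), and both V1 genes on X (vha-12 and vha-15) had one, as did 4 of the 6 on autosomes. The window grows with gene length, and with genes split into 4 equal groups by window length the percent with a summit was 13.7 among the shortest windows and 31.9 among the longest. vha-11, with no summit, was among the longest, while vha-9 and vha-10, with summits, were among the shortest. Outside the pump, and counting genes called near their start, C47E8.4 (signal 347.7), snr-4 (347.9) and twk-5 (345.7) had signals nearest to that of vha-12 (346.9).

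The bases at the summits were richer in G and C than their surroundings. Counted over 50 bp to either side of the summit, the G and C content was 58.4% at vha-13, against a mean of 32.7% in the windows of the same size centred 500 bp to either side, 50.5% against 30.7% at vha-15 and 55.4% against 48.0% at vha-12. It was 43.6% against 36.6% at vha-8 and 47.5% against 38.1% at vha-10. The vha-9 summits had 48.5% against 40.1% and 44.6% against 36.1%. All 7 summits exceeded their flanks, as did 3768 of all 4277 (88.1%). The G and C content at the vha-13 summit was higher than at 90.9% of all summits. The median difference was 8.42 percentage points over the 7 and 12.9 over all conservative summits. In the replicates' own lists this order turned, with 16.8 over the 5 V1 summits against 13.4 over all summits in replicate 1, and 16.3 over 5 against 13.6 in replicate 2. The V1 summits are therefore not placed above or below the rest by this measure.

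**Figure D5:**
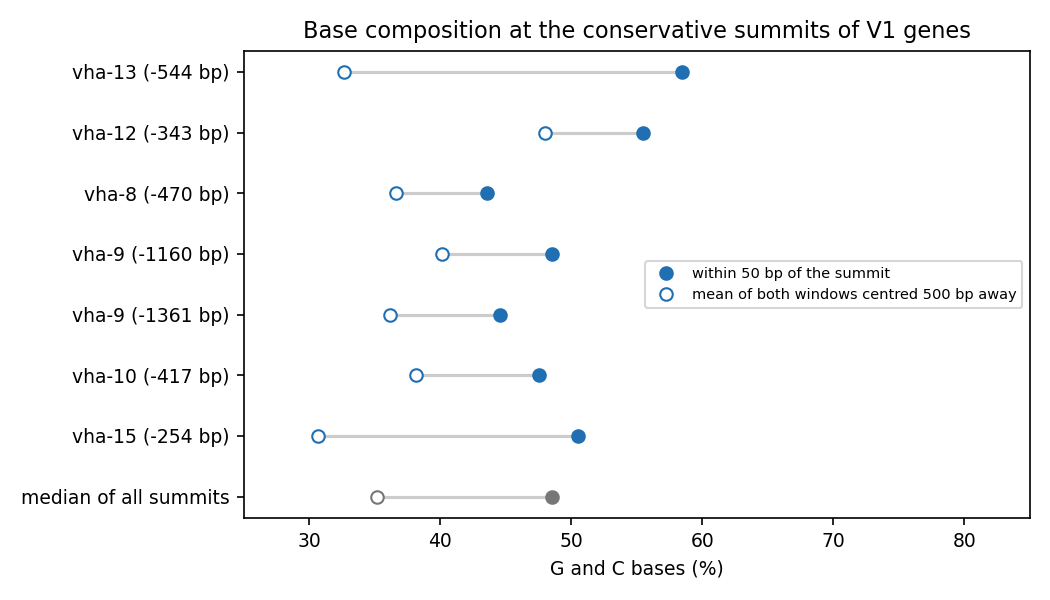
Share of G and C bases (%) within 50 bp of each conservative summit of a V1 gene and the mean of the windows centred 500 bp to either side, with the medians over all 4277 summits in grey. Every V1 summit lies to the right of its flanks.

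The motifs chosen from the 3 intergenic V1 summits are also found at other summits. In windows of 151 bp, both strands read, GACGCAG was in 649 of 4277 conservative summits (15.2%) and in 117 of 8554 flanking windows (1.37%), and GTCTCG in 529 (12.4%) and 431 (5.04%). Among the 7 V1 summits GACGCAG was in 2 (vha-12 and vha-15) and GTCTCG in 3 (those and vha-8). In the windows from 250 bp before to 50 bp after the annotated start, GACGCAG was in 4.34% and GTCTCG in 8.09% of all 19973 genes. Among the V1 genes GACGCAG was in 0 of these windows and GTCTCG in 1, that of vha-15. The GTCTCG printed above under the vha-15 summit lies within that window, so the summit and start counts overlap. 3 further motifs were searched on both strands of the start windows. CACGTG, the core of sites of lysosomal regulators, was in 0 of 8 V1 windows (5.82% of all genes), TGATAA, an extended GATA site, in 1 (vha-13, 30.2%) and TTTTTTTT in 2 (vha-8 and vha-11, 32.5%). Of the 7 V1 summits, 0 held CACGTG (3.23% of all summits), 0 held TGATAA (4.21%) and 1, at vha-9, held TTTTTTTT (4.44%). A match describes the letters and is not evidence of a bound factor.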

How the data were processed

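Chromatin immunoprecipitation peaks were analysed in 2 biological replicates of 1 group. Per the labels, both came from strain RW12311 and chromatin was sonicated to 200 to 800 bp. The peak lists were deposited by the authors on the ce11 assembly, per the deposited file listing. Which aligner and peak caller were used is not given in the sources at hand. In the deposited lists the score is a scaled irreproducible discovery rate (IDR) score, and the signal is an enrichment value whose scale the authors do not state. The −log10 of the q-value and of the global IDR were deposited by the authors. Read counts are not part of the lists, so depth per sample is unknown and no counting interval was computed. The joint ranked lists also carry 16 columns of per-replicate values that could not be mapped and were not used.

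Summits were converted to 1-based positions and assigned to genes of Ensembl release 115 with Python 3.11.15, pandas 2.3.3 and numpy 2.4.6, and figures were drawn with matplotlib 3.10.9. Replicates were compared by rank percent within each list. Sequence was read from the NCBI assembly of the same build. With 1 group there was no test of a condition, and counts stand beside the share of all genes. Alternatives were other lists, distances, windows and stricter peak filters. The assignment was tested on simulated data, in which 200 planted summits gave 0 wrong assignments. Named were all 8 members, each other pump gene with a conservative summit, nearer neighbours which lie nearest a summit, and the 3 outside genes closest in signal to the strongest member. The members and lists were chosen with earlier results of these data known.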

Additional observations from a re-analysis of the deposited data

How the results depend on the processing

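The count of V1 genes with a summit in the window ranged from 4 to 6 over the alternatives and was 5 when either replicate was left out, that is, in the other replicate's own list. The share of all genes was 12.3% in replicate 1's list and 14.1% in replicate 2's. The count was 4 with the stronger peaks by signal (11.6% of all genes) or with 500 bp upstream (13.2%). It was 5 with the nearest start alone (13.1%) or with 1000 bp upstream (15.5%). Without summits within 500 bp of a tRNA gene start (chosen after seeing the data), which removed vha-9, it was 5 (17.9%). Within 500 bp of the start the count was 4 in replicate 1's own list (6.06% of all genes) and 3 in replicate 2's (7.30%). It was 3 with the nearest start alone (7.98%) or the stronger peaks (5.80%). It was 5 at 1000 bp (13.0%) or in the other series list (9.92%). At 250 bp it was 0, where all genes gave 6.26%: the 4 summits lie from -470 to -254 bp. A global IDR of at most 0.01 left all 4277 peaks. The median G and C difference of 8.42 was 9.80 with 25 bp to either side of the summit, 9.20 with 100 bp and 10.9 with flanks 1000 bp away. It was 16.3 to 16.8 in the replicates' own lists, which have no vha-10 summit and 1 at vha-9. That vha-9 summit was at -184 bp in replicate 1 and -1102 bp in replicate 2, against -1160 and -1361 bp in the conservative list. The rank percent of vha-15 ranged from 20.9 to 53.9 and that of vha-12 from 4.71 to 10.6. The 10.6 follows from cutting the list to the 2138 stronger peaks, which leaves the rank of 227 unchanged. In the replicates' own lists vha-12 was at 7.50 and 7.27%. No paired analysis was possible because there is 1 group. With peak lists alone, depth and input cannot be examined.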

Other observations

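The accessory gene vha-19 had a joint ranked peak at -366 bp with a signal of 125.5, rank 1821, and a score of 1000, yet it was in none of the thresholded lists. In the ranked lists of the replicates it had a signal of 48.1 with a score of 923 and a signal of 77.2 with a score of 1000. It is among the 47 of 4324 joint ranked peaks that reach a score of 830 and are absent from the conservative list. The cause was not tested.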
